A study of Mus musculus with 12 samples.

Results

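The 44 genes described here encode the machinery that copies DNA in S phase, together with the enzymes that supply deoxynucleotides, the regulators that open S phase and the chromatin factors that act behind the replication fork. They were chosen as a named list of gene symbols, with no threshold on measured values. All 44 were among the 40213 gene symbols listed for each library, and all 44 were among the 17841 genes with enough counts to be tested.

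Before S phase, the origin recognition complex with Cdc6 and Cdt1 loads a ring of the Mcm2 to Mcm7 helicase subunits onto each origin. Cdc45 and the GINS complex then turn the ring into an active helicase, polymerases extend the new strands on the sliding clamp PCNA, and Fen1 and Lig1 join the lagging-strand fragments. In the adult kidney most cells are at rest, and after injury tubule cells, infiltrating immune cells and fibroblasts can enter the cell cycle.

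RNA was sequenced from kidney tissue of C57BL/6 mice in 3 groups of 4 libraries. The titles number them as replicates, and those of the colchicine group say biological replicates. The CKD+colchicine group received adenine in the diet and colchicine by intraperitoneal (IP) injection at 0.3 mg/kg/day. The CKD group (adenine-induced chronic kidney disease) received saline IP and a 2% adenine diet, and the control group received saline IP and a normal diet. Adenine in the diet injures the tubules through crystals of its oxidation product, and colchicine is a drug that binds tubulin and blocks microtubule assembly. The labels give 2% adenine for colchicine replicate 1 but 3%, 4% and 5% for replicates 2, 3 and 4, while the series' design names one adenine model, so colchicine and adenine percentage cannot be told apart in replicates 2 to 4. The percentage steps up with the replicate number, and whether the 3 higher ones were true diets or an error of labelling is not known. The adenine slope, its reading at 2% and the matching of colchicine replicate 1 to the CKD diet therefore depend on the labels being right. Every library carries the batch label 1, and the labels give neither age nor sex of the animals.

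Library totals lay between 22200909 and 38253100 counts. Values below are CPM (counts scaled to a library size of 1000000) after TMM scaling (trimmed mean of M-values, which sets library sizes on the premise that most genes do not change), and a gene was called when its adjusted p in edgeR's quasi-likelihood test was under 0.05. The share of counts from mitochondrially encoded transcripts was 14.6% to 21.8% in colchicine libraries and 16.7% to 17.3% in CKD libraries, against 41.5% to 46.7% in control libraries. Kidney markers went with the tissue label. The 10 proximal tubule markers summed to 567 to 928 CPM in colchicine libraries and 883 to 1177 CPM in CKD libraries, against 10760 to 11610 CPM in control libraries, and all 10 fell in CKD. In CKD libraries, 8 of 8 injured tubule, 8 of 8 macrophage, 7 of 7 fibroblast, 5 of 5 tested neutrophil and 6 of 7 tested T and NK cell markers were called higher than in control libraries. Of all genes, 34.1% were called higher and 33.4% lower. Other marker lists went down or were mixed. Endothelial markers had 0 higher and 5 lower of 6, collecting duct 0 and 5 of 6, and tested erythroid 0 and 5 of 5. Loop of Henle markers had 1 and 2 of 4, podocyte 2 and 2 of 5, and tested B and plasma cell 1 and 0 of 4. These calls are under TMM scaling, and several change without it. Macrophage markers summed to 1004 to 1030 CPM in CKD libraries and 88.1 to 105 CPM in control libraries, and fibroblast markers to 3299 to 3905 CPM in CKD libraries and 412 to 495 CPM in control libraries. The part of these cell types in the changes of the replication genes was not tested, and in bulk tissue more cells of a type and more RNA per cell cannot be told apart.

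The CKD against control comparison asks how the replication genes differ in the kidney after adenine feeding. Of the 44 genes, 28 rose (63.6%), 3 fell (6.82%) and 13 were not called. Over all 17841 genes, 34.1% were called higher and 33.4% were called lower in CKD, so changed genes were common and the share of replication genes called higher exceeded the background while the share called lower was below it. The median log2 fold change of the 44 genes was 0.50, against 0.04 over all genes. Their summed level was 549 to 601 CPM in CKD libraries and 425 to 466 CPM in control libraries. Of the 44 genes, 32 lay above the median change of all genes and 12 below it.

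The counts depend on the scaling, and the TMM factors were 1.23 to 1.27 in CKD libraries and 0.586 to 0.646 in control libraries. With library totals alone, the median log2 change of all genes was 1.05, 74% of all genes were called higher and 10.4% lower, and 43 of the 44 replication genes were called higher and 0 lower. A change of scaling shifts all genes by nearly the same amount, so a gene's place relative to the median of all genes hardly depends on it by construction. Directions below are those under TMM scaling, and the 3 genes called lower are given with their values relative to that median.

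**Figure D1:**
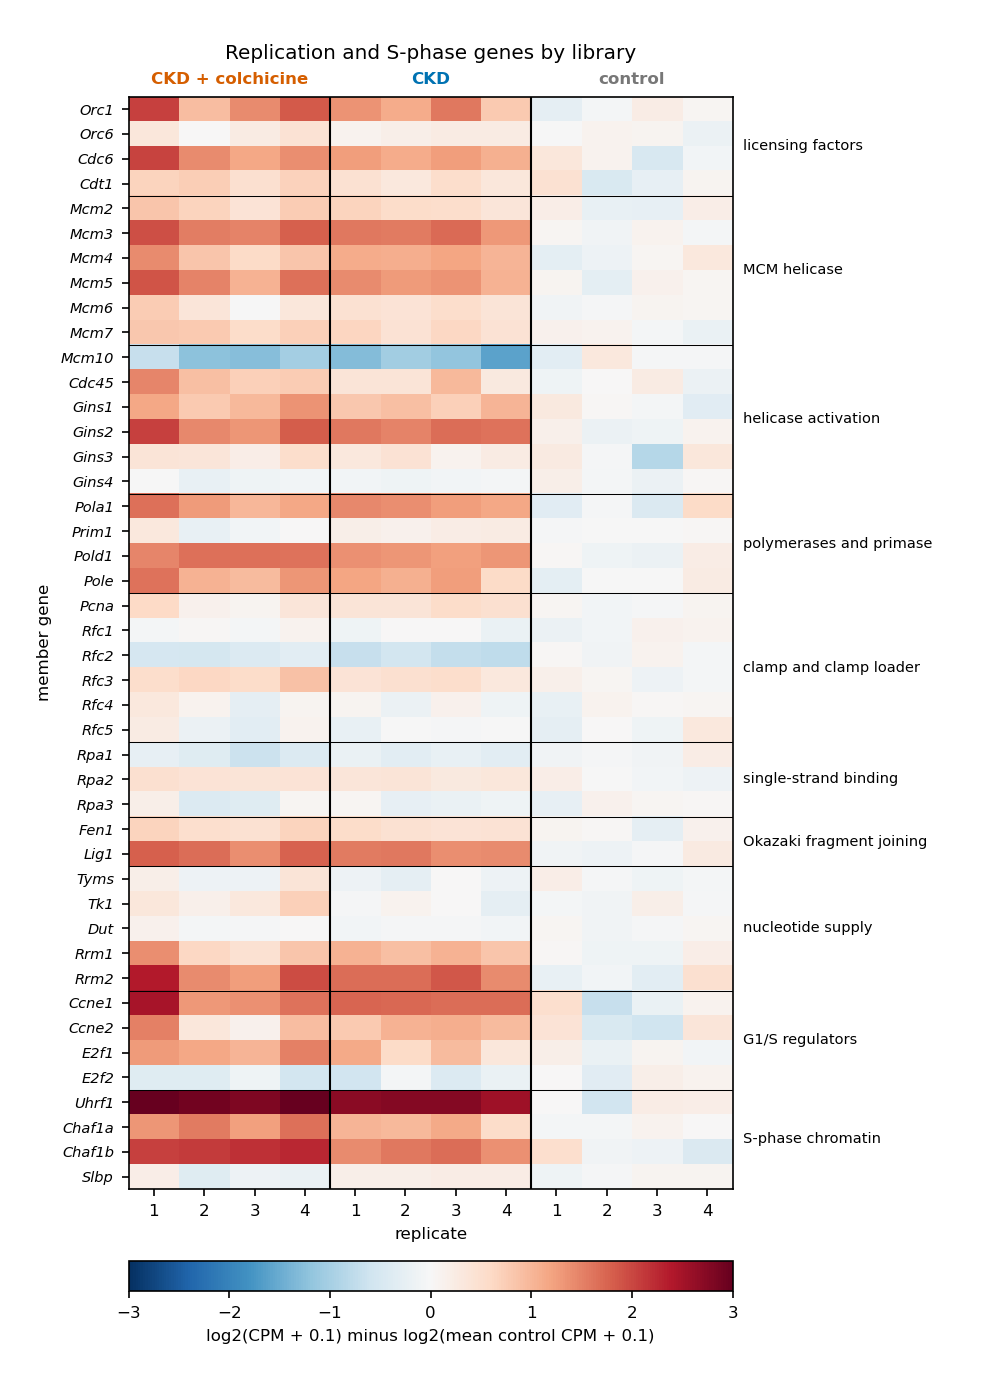
Level of each of the 44 genes in each library, as log2(CPM + 0.1) minus log2 of the mean control CPM + 0.1, with CKD+colchicine, CKD and control replicates from left to right and genes grouped by role. Uhrf1 is the darkest red row in the 8 adenine libraries, while Mcm10, Rfc2 and Rpa1 are blue in them under TMM scaling (with library totals alone Rfc2 and Rpa1 turn higher and Mcm10 is not called).

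Uhrf1 had the largest log2 change of the 44 genes. It encodes a protein that recognises hemimethylated DNA behind the fork and brings the maintenance methyltransferase there. Its level was 10.8, 11.1, 11.0 and 9.55 CPM in CKD libraries and 1.57, 1.02, 1.85 and 1.80 CPM in control libraries. All CKD libraries lay above all control libraries, at 6.87-fold the control level (log2 2.78 ± 0.17 SE, edgeR adjusted p = 9.78e-10). Of the 31-base stretches of its annotated exons, 24.2% also occur in other annotated transcripts, mostly of the gene model Gm5648, so some of its reads could have been divided by the authors' quantification.

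Lig1, the ligase that seals Okazaki fragments, measured 15.9, 16.2, 14.2 and 14.6 CPM in CKD libraries and 4.96, 4.84, 5.204 and 6.435 CPM in control libraries. Mcm3, a subunit of the helicase ring, measured 20.5, 20.2, 22.2 and 16.9 CPM in CKD libraries and 7.05, 6.32, 7.33 and 6.49 CPM in control libraries. Neither gene's groups overlapped. Lig1 rose 2.84-fold (log2 1.51 ± 0.12 SE, edgeR adjusted p = 2.10e-08) and Mcm3 rose 2.94-fold (log2 1.55 ± 0.12 SE, edgeR adjusted p = 2.03e-08).

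Mcm10 went the other way. It encodes a scaffold that binds the helicase and polymerase alpha when origins fire. Its level was 2.29, 2.74, 2.47 and 1.84 CPM in CKD libraries and 4.61, 7.28, 5.61 and 5.62 CPM in control libraries. The groups did not overlap, and the CKD level was 2.48-fold lower (log2 -1.31 ± 0.19 SE, edgeR adjusted p = 2.27e-05). With library totals alone its log2 change was -0.30 and was not called (edgeR adjusted p = 0.166). Relative to the median change of all genes it stood at -1.35 on the log2 scale under both scalings.

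**Figure D2:**
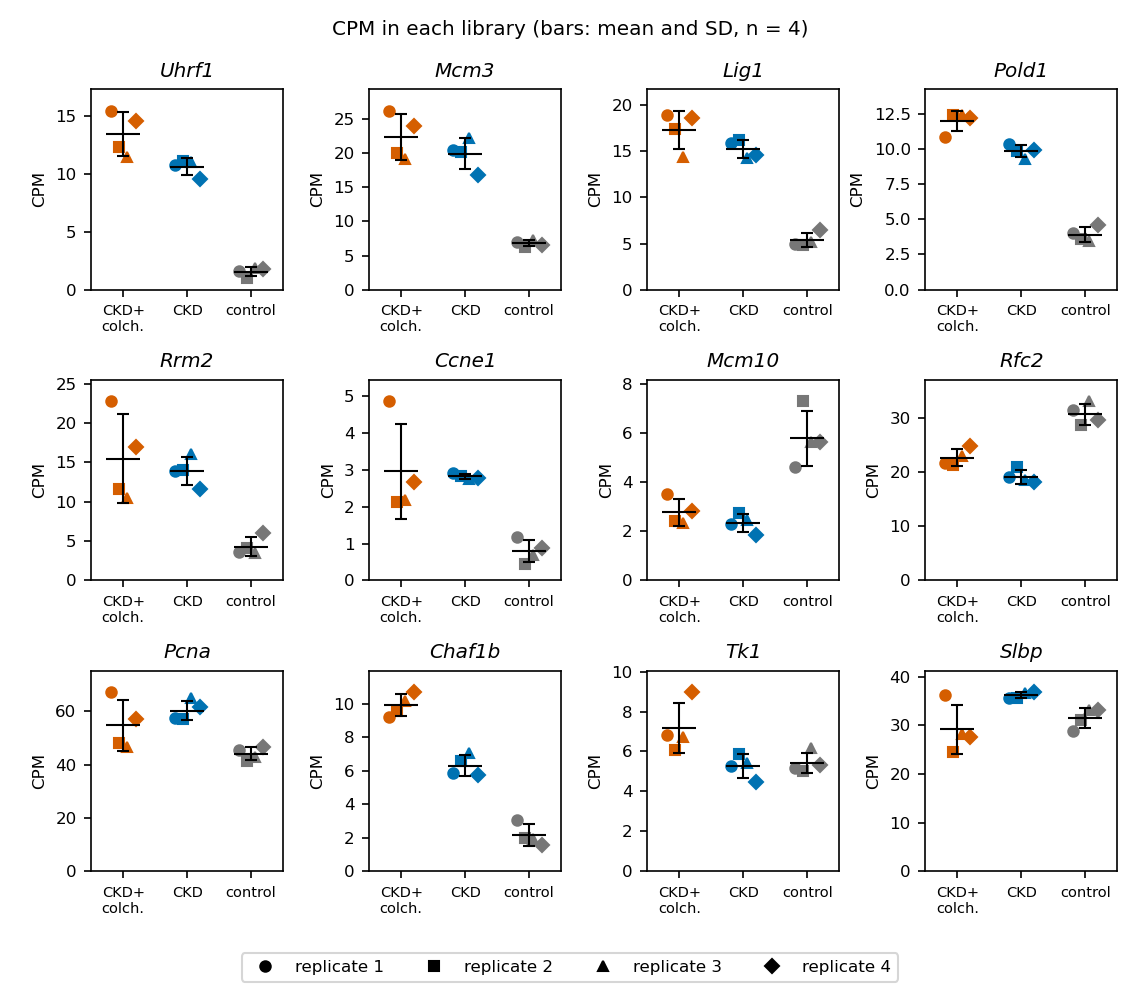
CPM of 12 of the 44 genes in each library, with CKD+colchicine, CKD and control from left to right, replicates by symbol and bars for the mean and SD (n = 4). Uhrf1, Mcm3, Lig1, Pold1, Rrm2 and Ccne1 lie above their control libraries in every adenine library, and Mcm10 and Rfc2 lie below (Rfc2 turns higher with library totals alone). All 3 groups are separate for Chaf1b, Uhrf1, Pold1 and Rfc2.

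E2F proteins are transcription factors that bind promoters of many S-phase genes, and promoter sequences of these genes were therefore searched for short words. Promoters came from RefSeq (build GRCm38.p6), each covering 250 bases before to 50 bases after an annotated start, while the counts rest on GRCm39, so no coordinates were carried between them. The words were TTTCCCGC, TTTCGCGC, TTTGCCGC and TTTGGCGC for E2F, CCAAT for NF-Y, CACGTG for the E-box and TTTGAA for the cell cycle homology region (CHR), each on both strands. Of the 44 genes, 37 had an entry, with 43 promoters in all. The stretches below are those of 3 genes that rose, from 3 role groups and with an E2F-type word, and of Mcm10, which fell. Sequences run 5′ to 3′ on the gene's strand, capitals mark E2F-type words and CCAAT or its reverse complement ATTGG, and positions count from the annotated start.
Uhrf1, chr17:56304113-56304312, plus strand, positions -200 to -1: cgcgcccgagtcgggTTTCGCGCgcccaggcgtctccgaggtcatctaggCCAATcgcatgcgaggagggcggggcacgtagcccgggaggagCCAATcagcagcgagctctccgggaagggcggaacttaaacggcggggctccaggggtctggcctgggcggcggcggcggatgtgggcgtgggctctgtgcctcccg
Mcm3, chr1:20820313-20820512, minus strand, positions -200 to -1: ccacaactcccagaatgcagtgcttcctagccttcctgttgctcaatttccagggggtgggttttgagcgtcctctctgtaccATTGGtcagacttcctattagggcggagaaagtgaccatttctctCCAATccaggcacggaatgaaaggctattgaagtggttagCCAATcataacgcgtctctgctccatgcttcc
Mcm3, chr1:20820265-20820294, minus strand, positions 19 to 48: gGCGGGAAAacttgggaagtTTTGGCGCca
Lig1, chr7:13278841-13278870, plus strand, positions 16 to 45: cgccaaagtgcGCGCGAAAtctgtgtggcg
Mcm10, chr2:5012792-5012991, minus strand, positions -200 to -1: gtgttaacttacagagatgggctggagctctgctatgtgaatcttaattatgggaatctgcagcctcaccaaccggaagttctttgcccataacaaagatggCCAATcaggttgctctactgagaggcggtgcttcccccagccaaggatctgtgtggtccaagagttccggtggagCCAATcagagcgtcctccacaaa

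The Uhrf1 stretch holds 1 E2F-type word and 2 CCAAT words, and Mcm3 holds 3 CCAAT words before the start and 2 E2F-type words just after it. The Mcm10 stretch holds 2 CCAAT words and 0 E2F-type words. The table also lists 1 further promoter of Uhrf1 and 2 of Lig1, which hold 0 E2F-type words. Over the 43 promoters of the replication genes, 32.6% held an E2F-type word, against 2.26% of the 32851 promoters in the table. CCAAT was in 62.8% of them and 37.4% of all promoters, CACGTG in 14.0% and 7.15%, and TTTGAA in 11.6% and 17.9%. The replication gene promoters were also richer in G and C, with a median of 61.3% against 52.7%. In these promoters 2 pairs of E2F-type words overlapped each other and 1 E2F-type word overlapped a CCAAT word. A word match describes the letters only and shows no binding.

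**Figure D3:**
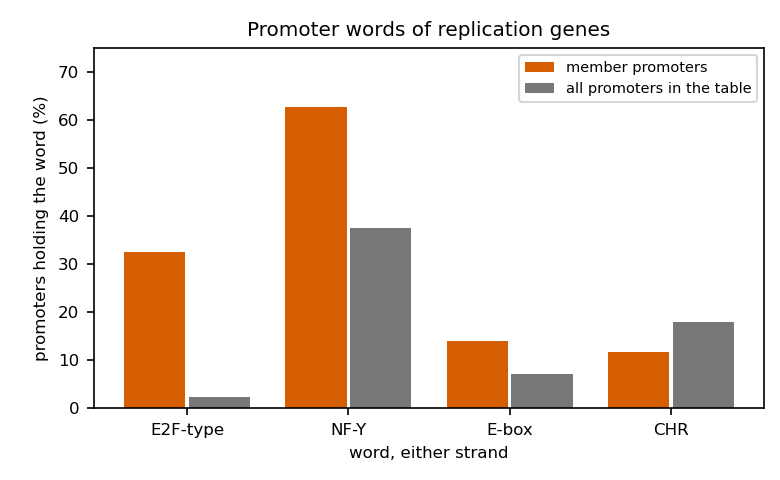
Share of promoters, in percent, holding each kind of word on either strand, for the 43 promoters of the replication genes and for all 32851 promoters in the RefSeq table. The E2F-type words stand at 32.6% against 2.26%.

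An E2F-type word was found for 12 of the 23 matched genes that rose in CKD, 2 of the 12 not called and 0 of the 2 that fell. The 14 genes with the word had a median log2 change of 1.27 in CKD over control, ranging between -0.30 and 2.78, and the 23 without it had a median of 0.20, ranging between -1.31 and 1.83. The ranges overlap widely, and the split is given as a description with no test. By role, the word was in 4 of 5 matched MCM helicase genes and 3 of 4 licensing genes, but in 0 of 5 nucleotide supply genes and 0 of 3 genes of the single-strand binding complex.

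Licensing factors place the helicase on origins. Of 4 genes, 3 rose in CKD (75%, beside 34.1% of all genes) and 1 was not called. Cdc6, the loading ATPase, measured 2.04, 1.85, 2.05 and 1.78 CPM in CKD libraries and 1.05, 0.866, 0.548 and 0.754 CPM in control libraries. It rose 2.38-fold without overlap of the groups (log2 1.25 ± 0.26 SE, edgeR adjusted p = 0.00052). Orc1, the largest origin recognition subunit, was the least abundant of the 44 genes per kilobase of exon, with 16, 13, 23 and 12 counts in CKD libraries and 2, 3, 3 and 3 counts in control libraries. Its fitted log2 change was 1.66 ± 0.45 SE (edgeR adjusted p = 0.00414), the largest standard error of the 44 genes. Cdt1, the partner of Cdc6, was called higher at log2 0.42 ± 0.17 SE (edgeR adjusted p = 0.0349), but its groups overlapped and the call was lost under 5 of 22 alternatives, with an adjusted p of 0.128 without control replicate 2. Orc6 was not called, at 0.20 ± 0.11 on the log2 scale.

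The 6 subunits of the MCM helicase ring all rose (100%, beside 34.1% of all genes), under every alternative tried. Among these was library totals alone, where 74% of all genes were called higher. Mcm5, which flanks the gate of the ring, measured 12.4, 11.15, 11.73 and 9.49 CPM in CKD libraries and 4.84, 3.72, 5.00 and 4.75 CPM in control libraries. It rose 2.45-fold without overlap of the groups (log2 1.29 ± 0.17 SE, edgeR adjusted p = 6.67e-06). The log2 changes of the 6 subunits were not equal, ranging between 0.45 for Mcm6 and 1.55 for Mcm3, with Mcm4 at 1.11, Mcm7 at 0.53 and Mcm2 at 0.53. Of the annotated 31-base stretches of Mcm7, 26.8% are shared with other gene models, mostly Gm5487.

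Because the subunits assemble in equal number, their shares of the summed counts of the complex were compared as a description that does not depend on library scaling. Mcm3 made up 14.4% ± 0.86 of the ring's counts in CKD libraries and 8.30% ± 0.55 in control libraries (SD, n = 4 each). Mcm6 made up 27.4% ± 0.90 in CKD libraries and 34.0% ± 1.93 in control libraries. The shares moved in opposite directions without overlap, at 13.3% to 15.2% in CKD against 7.67% to 8.91% in control for Mcm3, and 26.6% to 28.7% in CKD against 31.3% to 36.0% in control for Mcm6. In the clamp loader, Rfc2 made up 28.2% ± 1.30 in CKD libraries and 39.1% ± 2.48 in control libraries, and Rfc3 made up 14.8% ± 0.37 in CKD libraries and 9.45% ± 1.34 in control libraries. Such a shift shows unequal change within a complex, and says nothing of protein.

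**Figure D4:**
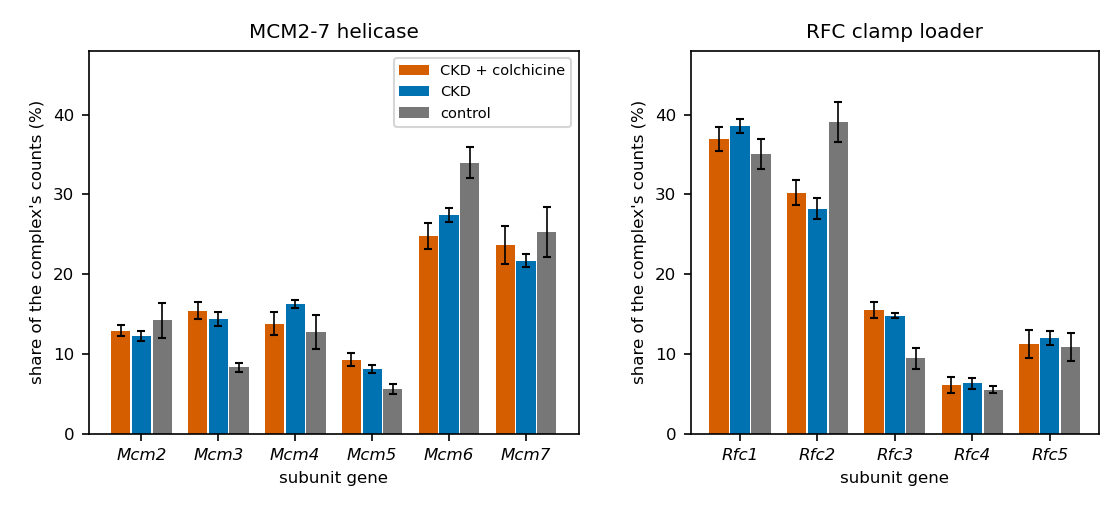
Share of each subunit gene in the summed counts of the MCM2-7 helicase (left) and the RFC clamp loader (right), as mean and SD of 4 libraries, with CKD+colchicine, CKD and control from left to right. Mcm3 and Rfc3 take larger shares and Mcm6 and Rfc2 smaller shares in CKD than in control libraries.

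Among the 6 helicase activation genes, 3 rose (50%, beside 34.1% of all genes), 1 fell (16.7%, beside 33.4%) and 2 were not called. Gins2, a GINS subunit, measured 4.71, 4.38, 5.03 and 4.88 CPM in CKD libraries and 1.69, 1.32, 1.37 and 1.62 CPM in control libraries. It rose 3.16-fold without overlap of the groups (log2 1.66 ± 0.19 SE, edgeR adjusted p = 1.41e-06). In the GRCm38 annotation 67.3% of its exon bases lie opposite exons of Gse1, and no source used here states the strand of the counting, so reads of both genes could be mixed. Gse1 had 994 to 1160 counts in CKD libraries and 492 to 545 in control libraries. Gins1 was at 0.90 ± 0.18 on the log2 scale. The GINS members Gins3 and Gins4 were not called, at 0.28 ± 0.21 and -0.09 ± 0.08. Gins4 was the most abundant GINS gene per kilobase of exon in the 3 groups, and it ranked second of the 44 genes behind Pcna in each. Cdc45, the helicase partner of MCM and GINS, was called higher at 0.57 ± 0.24 on the log2 scale (edgeR adjusted p = 0.0434). CKD replicate 3 stood apart, at 3.45 CPM beside 2.13 to 2.29 CPM in the other CKD libraries, against 1.51 to 2.05 CPM in control libraries. Without CKD replicate 3 its adjusted p was 0.171, and the call was lost under 10 of 22 alternatives.

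Of the 4 polymerase and primase genes, 3 rose (75%, beside 34.1% of all genes) and Prim1 was not called. Pold1, the catalytic subunit of the lagging-strand polymerase delta, measured 10.3, 9.83, 9.26 and 9.90 CPM in CKD libraries and 4.02, 3.56, 3.42 and 4.58 CPM in control libraries. Pola1, the catalytic subunit of polymerase alpha that extends primers, measured 8.90, 8.51, 7.74 and 7.21 CPM in CKD libraries and 2.51, 3.11, 2.33 and 4.81 CPM in control libraries. Both separated the groups. Pold1 rose 2.52-fold (log2 1.33 ± 0.11 SE, edgeR adjusted p = 3.92e-08) and Pola1 rose 2.52-fold (log2 1.33 ± 0.21 SE, edgeR adjusted p = 3.68e-05). Pole, of the leading-strand polymerase epsilon, was at 1.08 ± 0.21 on the log2 scale. Prim1, the small primase subunit that works in the same complex as Pola1, was at 0.20 ± 0.12.

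Of the 6 clamp and clamp loader genes, 2 were higher (33.3%, near the 34.1% of all genes), 1 was lower (Rfc2, which turns higher with library totals) and 3 were not called. Pcna, the sliding clamp and the gene with the highest level per kilobase of exon, measured 57.4, 57.3, 64.9 and 61.6 CPM in CKD libraries and 45.6, 41.4, 42.8 and 46.6 CPM in control libraries. It rose 1.37-fold without overlap (log2 0.45 ± 0.10 SE, edgeR adjusted p = 0.00122), and 23.3% of its 31-base stretches are shared with Pcna-ps2. The clamp loader gene Rfc2 measured 19.1, 21.0, 18.6 and 18.1 CPM in CKD libraries and 31.5, 28.7, 33.1 and 29.7 CPM in control libraries. Its CKD level was 1.60-fold lower (log2 -0.68 ± 0.08 SE, edgeR adjusted p = 1.96e-06), but with library totals alone its log2 change was 0.33 and called higher. Relative to the median of all genes Rfc2 stood at -0.72 under TMM scaling and -0.71 with library totals. Rfc3 was at 0.44 ± 0.11 on the log2 scale. Rfc1, the large loader subunit, and the small subunits Rfc4 and Rfc5 were not called, at -0.08 ± 0.09, -0.02 ± 0.15 and -0.07 ± 0.15. In the annotation 15.1% of the exon bases of Rfc2 lie opposite exons of Lat2, which had 406 to 511 counts in CKD libraries and 20 to 42 in control libraries.

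The RPA complex protects single-stranded DNA. Rpa2, its middle subunit, measured 9.50, 9.65, 9.08 and 9.38 CPM in CKD libraries and 8.51, 7.28, 6.98 and 6.67 CPM in control libraries. Rpa1, its large subunit, measured 32.5, 29.9, 32.2 and 30.2 CPM in CKD libraries and 35.1, 36.5, 35.0 and 43.6 CPM in control libraries. Rpa2 rose 1.28-fold (log2 0.35 ± 0.10 SE, edgeR adjusted p = 0.00448), while Rpa1 fell by 0.27 on the log2 scale (± 0.10 SE, edgeR adjusted p = 0.021) and Rpa3 was not called at -0.13 ± 0.15. The Rpa1 call was lost under 5 of 22 alternatives, with adjusted p-values of 0.168 under upper-quartile scaling, 0.101 with no low-count filter, 0.0909 without control replicate 4, 0.0575 without CKD replicate 2 and 0.0544 without CKD replicate 4. Its direction turned to 0.74, called higher, with library totals alone. Against the median of all genes Rpa1 stood at -0.31 under TMM.

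Fen1, the flap nuclease that trims Okazaki fragments, rose with Lig1. It measured 11.0, 10.4, 9.91 and 10.1 CPM in CKD libraries and 7.87, 7.64, 6.23 and 8.17 CPM in control libraries. The groups did not overlap, at 1.38-fold (log2 0.46 ± 0.10 SE, edgeR adjusted p = 0.00107). In the annotation 78.8% of its exon bases lie opposite the antisense gene model Gm10143.

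Of the 5 nucleotide supply genes, 2 were called higher, both of ribonucleotide reductase. That share of 40% is near the 34.1% of all genes. Rrm2, the S-phase regulatory subunit of ribonucleotide reductase, measured 13.89, 14.03, 16.01 and 11.57 CPM in CKD libraries and 3.67, 4.08, 3.42 and 6.03 CPM in control libraries. Rrm1, its catalytic subunit, measured 27.33, 24.75, 26.97 and 23.39 CPM in CKD libraries and 13.3, 12.0, 12.0 and 15.1 CPM in control libraries. Neither overlapped between groups. Rrm2 rose 3.22-fold (log2 1.69 ± 0.25 SE, edgeR adjusted p = 3.07e-05) and Rrm1 rose 1.95-fold (log2 0.96 ± 0.17 SE, edgeR adjusted p = 0.000153). Thymidylate synthase Tyms, thymidine kinase Tk1 and the dUTPase gene Dut were not called, at -0.14 ± 0.13, -0.04 ± 0.15 and -0.06 ± 0.07 on the log2 scale, and their CKD and control libraries overlapped. With library totals alone these 3 were called higher, at 0.88, 0.97 and 0.95, under the 1.05 median of all genes. Tk1 measured 5.28, 5.88, 5.45 and 4.47 CPM in CKD libraries and 5.19, 5.04, 6.16 and 5.33 CPM in control libraries.

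Of the G1/S regulators, 3 of 4 rose (75%, beside 34.1% of all genes). Ccne1, the cyclin E1 gene whose product activates Cdk2 at the start of S phase, measured 2.92, 2.85, 2.77 and 2.77 CPM in CKD libraries and 1.17, 0.458, 0.685 and 0.870 CPM in control libraries. E2f1, an activator of S-phase genes, measured 5.38, 3.63, 4.76 and 3.10 CPM in CKD libraries and 2.74, 2.09, 2.53 and 2.26 CPM in control libraries. The CKD libraries of both genes lay above their control libraries, narrowly for E2f1. Ccne1 rose 3.56-fold (log2 1.83 ± 0.32 SE, edgeR adjusted p = 0.000113) and E2f1 rose 1.75-fold (log2 0.81 ± 0.20 SE, edgeR adjusted p = 0.00182). Ccne2, the cyclin E2 gene, was at 1.02 ± 0.33, and E2f2, another activator E2F, was not called at -0.30 ± 0.19.

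In the chromatin group, 3 of 4 genes rose (75%, beside 34.1% of all genes). Chaf1b, a subunit of the CAF-1 chaperone that deposits histones on new DNA, measured 5.87, 6.59, 7.05 and 5.72 CPM in CKD libraries and 3.09, 1.99, 1.92 and 1.56 CPM in control libraries. It rose 2.94-fold without overlap (log2 1.56 ± 0.17 SE, edgeR adjusted p = 9.93e-07), and its partner Chaf1a was at 0.97 ± 0.16. In the annotation 52.5% of the exon bases of Chaf1a lie opposite exons of Ubxn6. Slbp, which binds the stem-loop of histone messages, was not called at 0.20 ± 0.10 (edgeR adjusted p = 0.0943), although its CKD libraries at 35.7 to 36.8 CPM lay above its control libraries at 28.8 to 33.2 CPM.

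The colchicine against CKD comparison asks whether these levels differ when colchicine is given with adenine. Few passed the test. Of the 44 genes, 4 were called higher (9.09%), 1 was called lower (2.27%) and 39 were not called, while 6.79% of all genes were called higher and 8.24% lower. The share called higher was near the background. The median log2 change was 0.13, against 0.03 over all genes, the 44 values ranged between -0.31 and 0.65, and 33 of them were above 0. An unadjusted p under 0.05 was found for 9 of the 44 genes and 5881 of all 17841 genes, a smaller share of the 44 than of all genes.

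Chaf1b showed the largest change between colchicine and CKD. It measured 9.24, 9.56, 10.2 and 10.7 CPM in colchicine libraries and 5.87, 6.59, 7.05 and 5.72 CPM in CKD libraries. All colchicine libraries lay above all CKD libraries, which lay above all control libraries. The difference was 1.57-fold (log2 0.65 ± 0.15 SE, edgeR adjusted p = 0.012). It was called under 22 of 23 alternatives. The exception was a model that added a slope on labelled adenine percentage, read at 2% adenine, where its log2 change was 0.54 and its adjusted p was 0.13.

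The 4 other calls were less stable. Chaf1a measured 6.71, 7.91, 6.20 and 8.35 CPM in colchicine libraries and 5.42, 5.24, 5.86 and 3.85 CPM in CKD libraries, at log2 0.52 ± 0.15 SE (edgeR adjusted p = 0.0298). Tk1 measured 6.85, 6.08, 6.75 and 8.97 CPM in colchicine libraries and 5.28, 5.88, 5.45 and 4.47 CPM in CKD libraries, at 0.44 ± 0.14 (edgeR adjusted p = 0.0457). Both separated the groups. Rfc2 measured 21.6, 21.4, 23.1 and 24.9 CPM in colchicine libraries and 19.1, 21.0, 18.6 and 18.1 CPM in CKD libraries, at 0.24 ± 0.08 (edgeR adjusted p = 0.0497). The Rfc2 groups did not overlap either, and its colchicine level lay between the CKD and control levels. Slbp measured 36.3, 24.6, 28.3 and 27.6 CPM in colchicine libraries and 35.7, 35.6, 36.7 and 36.8 CPM in CKD libraries, at -0.31 ± 0.10 (edgeR adjusted p = 0.0487). For Slbp colchicine replicate 1 lay among the CKD libraries and the other 3 lay below them. Of 23 alternatives, 9 lost the call of Chaf1a, 15 that of Tk1, 15 that of Rfc2 and 17 that of Slbp. Pold1, Uhrf1 and Rpa2 also lay above all CKD libraries in every colchicine library, but were not called.

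**Figure D5:**
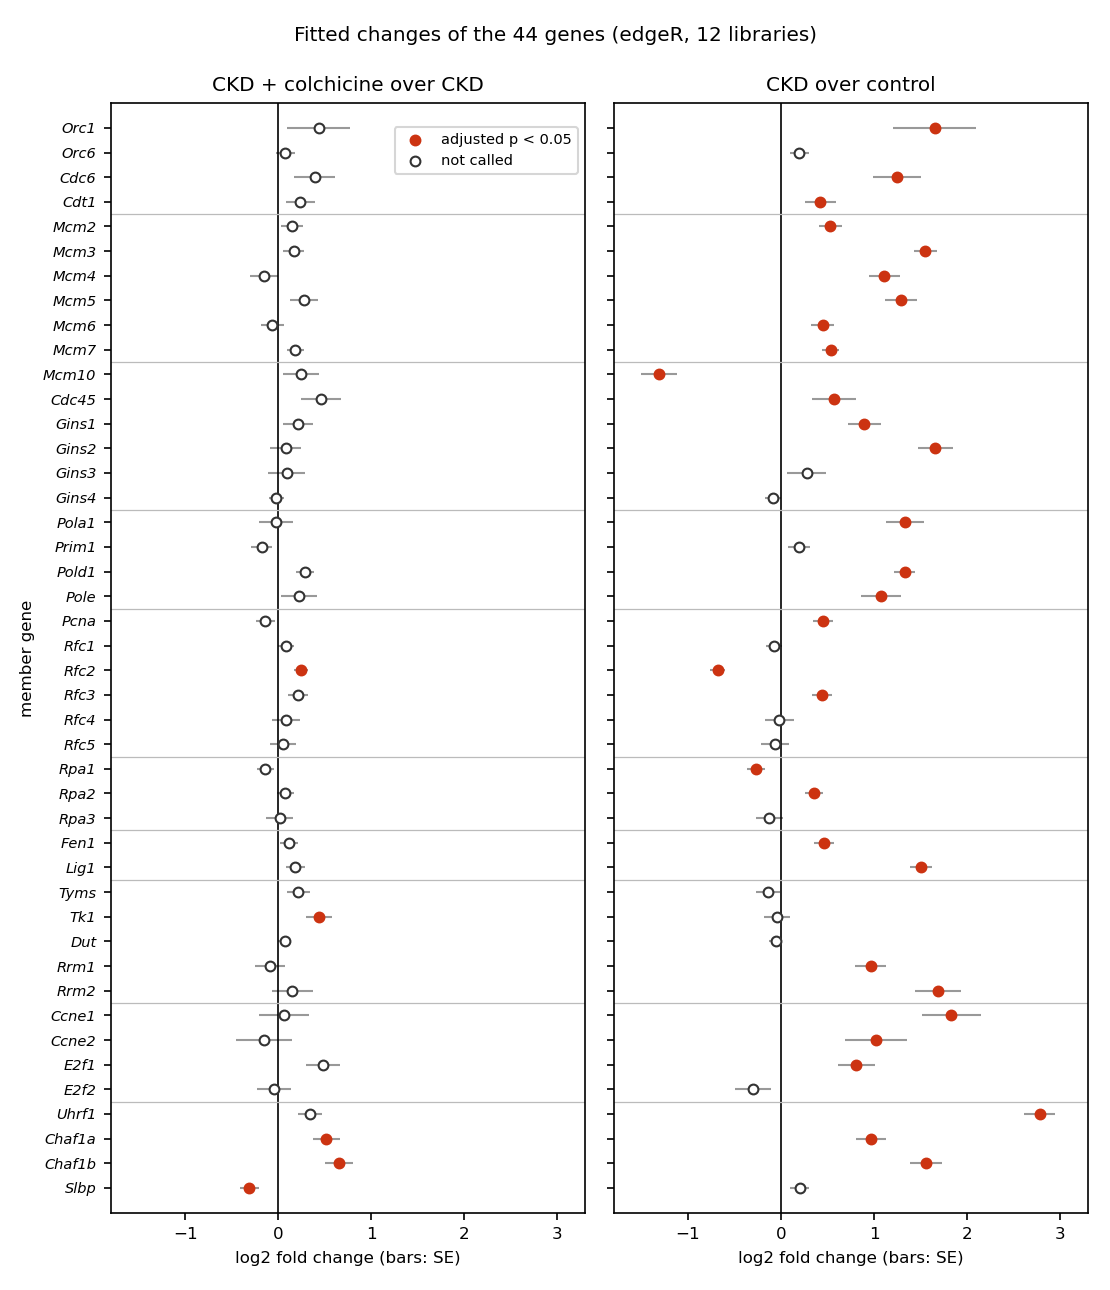
Fitted log2 fold change of each of the 44 genes with its standard error, for CKD+colchicine over CKD (left) and CKD over control (right). Filled points are called at an adjusted p under 0.05, namely 5 of 44 on the left and 31 of 44 on the right.

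The coefficient of variation (SD over mean) of the 44 genes had a median of 16.8% over colchicine libraries, 7.4% over CKD libraries and 12.0% over control libraries, and it was larger over colchicine than over CKD libraries for 37 of the 44. Replicate 1 was the highest colchicine library for 29 of the 44 genes. These counts were not made over all genes, but the colchicine libraries also differed more over all genes. There, the chi-square per degree of freedom between the counts of paired libraries was 57.2 to 75.5 for pairs with colchicine replicate 1. It was 20.7 to 44.8 for the other colchicine pairs, 7.20 to 11.2 for CKD pairs and 6.76 to 32.3 for control pairs. In replicate 1, the only colchicine library labelled with the 2% adenine of the CKD group, 43 of the 44 genes were above the CKD mean, by 0.35 on average on the log2 scale. The same count was 24, 20 and 33 genes in replicates 2, 3 and 4. It was 27, 25, 32 and 10 genes in CKD replicates 1 to 4, whose own mean this is. The 44 genes summed to 694, 561, 523 and 626 CPM in colchicine replicates 1 to 4 and 549 to 601 CPM in CKD libraries. Rrm2 showed the spread, at 22.7, 11.6, 10.4 and 17.0 CPM in colchicine libraries and 13.89, 14.03, 16.01 and 11.57 CPM in CKD libraries. Ccne1 measured 4.86, 2.12, 2.20 and 2.68 CPM in colchicine libraries and 2.77 to 2.92 CPM in CKD libraries, with 1 colchicine library above that range and 3 below. Without colchicine replicate 1, 5 genes were called higher than CKD and 5 lower, the lower ones being Mcm4, Pcna, Prim1, Rrm1 and Slbp. Each count is 11.4% of the 44, below the 15.9% of all genes called higher and 19.4% called lower without that library. Leaving out any 1 of the other 11 libraries left 1 to 3 genes called higher (2.27% to 6.82%) and 0 lower. Of all genes, these fits called 2.31% to 6.65% higher and 3.16% to 8.25% lower, so the share called higher was near the background. With a slope on adenine percentage read at 2%, edgeR called 0 of the 44 genes in either direction, with 7 at an unadjusted p under 0.05. That model called 2.2% of all genes higher and 3.45% lower, so 0 of 44 is near the background. Its slope rests on the 4 colchicine libraries, 1 per labelled percentage. The slope itself was called for 0 of the 44 genes, with 3 at an unadjusted p under 0.05, and for 226 of all 17841 genes.

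Against control, the colchicine group had 30 of the 44 genes higher, 3 lower and 11 not called, with 37.1% of all genes called higher and 33.4% lower. Of 23 alternatives, 10 lost the higher call of Orc6, 6 that of Ccne2, 4 that of Tk1 and 1 that of Pcna. The colchicine and control libraries of these genes and of Mcm6 overlapped. The median log2 change was 0.67, against 0.10 over all genes. With library totals alone 43 were higher and 0 lower, beside 77.1% of all genes higher and 10.9% lower, and the median of all genes was 1.14. This comparison shares the control libraries with CKD against control and the colchicine libraries with colchicine against CKD. Uhrf1 was again at the top, with 15.5, 12.3, 11.5 and 14.5 CPM in colchicine libraries and 1.02 to 1.85 CPM in control libraries (log2 3.12 ± 0.17 SE, edgeR adjusted p = 2.07e-10). Mcm10 was lowest, with 3.53, 2.40, 2.34 and 2.82 CPM in colchicine libraries and 4.61 to 7.28 CPM in control libraries (log2 -1.07 ± 0.19 SE, edgeR adjusted p = 0.000132). Relative to the median of all genes it stood at -1.17 under TMM scaling and with library totals.

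Genes around the replication machinery were counted from lists of pathway genes taken whole. Their counts below are under TMM scaling, and with library totals alone the genes called lower were 0 of the other replication factors, 1 of the nucleotide supply, 0 of the G1/S, 0 of the chromatin, 1 of the checkpoint and 0 of the mitosis genes. Of 38 other replication factors, 20 rose and 8 fell in CKD against control (52.6% and 21.1%, beside 34.1% and 33.4% of all genes). Pclaf, a PCNA-binding protein of S phase, measured 8.09, 7.69, 7.80 and 6.13 CPM in CKD libraries and 1.17, 0.968, 1.16 and 1.16 CPM in control libraries (log2 2.74 ± 0.25 SE). Pole4, a small subunit of polymerase epsilon, measured 18.2, 20.8, 19.9 and 20.4 CPM in CKD libraries and 34.7, 40.2, 37.5 and 37.5 CPM in control libraries (log2 -0.92 ± 0.08 SE), although with library totals alone its change was 0.09 and not called. Pole4 therefore moved opposite to the catalytic subunit gene Pole under TMM scaling. In colchicine against CKD, Rnaseh2a, of the nuclease that removes RNA from DNA, was the 1 gene of this list called, at 0.27 ± 0.08. Timeless, a fork protection factor, was at 1.05 ± 0.11 in CKD against control and was not called in colchicine against CKD.

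Of 12 other nucleotide supply genes, 5 were called higher and 6 lower in CKD (41.7% and 50%, beside 34.1% and 33.4% of all genes). Samhd1, which degrades deoxynucleotides, rose by 1.40 ± 0.09 on the log2 scale, and Cad, of pyrimidine synthesis, was at 0.65 ± 0.11. Shmt1, a folate cycle enzyme, was at -0.63 ± 0.07 in CKD against control under TMM scaling, at 0.38 and called higher with library totals. It was also the 1 gene of the list called in colchicine against CKD, with 18.6, 17.2, 16.5 and 18.2 CPM in colchicine libraries and 25.6, 23.7, 27.1 and 24.9 CPM in CKD libraries (log2 -0.52 ± 0.07 SE, edgeR adjusted p = 0.000992).

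Of 25 further G1/S control genes, 14 rose and 6 fell in CKD (56% and 24%, beside 34.1% and 33.4% of all genes). Cdkn1a, an inhibitor of cyclin-dependent kinases, measured 44.81, 43.95, 46.53 and 45.01 CPM in CKD libraries and 5.01, 6.27, 6.92 and 6.84 CPM in control libraries (log2 2.85 ± 0.19 SE). This inhibitor was higher in the same libraries as Ccne1 and the MCM genes. In colchicine against CKD, Cdkn1a at 0.55 ± 0.16, Ccnd2 at 0.36 ± 0.08 and Cdk4 at 0.27 ± 0.06 were called higher, among 4 higher and 2 lower of the 25 (16% and 8%, beside 6.79% and 8.24% of all genes). With upper-quartile scaling 8 were higher and 1 lower (32% and 4%, beside 9.89% and 6.64% of all genes). Cdk6, a G1 kinase, was at 1.01 ± 0.07 in CKD against control.

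Of 12 S-phase chromatin genes outside the 44, 9 rose and 2 fell in CKD (75% and 16.7%, beside 34.1% and 33.4% of all genes). The maintenance methyltransferase Dnmt1 was at 0.73 ± 0.09 and the histone chaperone Nasp at 0.53 ± 0.07 on the log2 scale. The acetyltransferase Hat1 was at 0.24 ± 0.10, and Rbbp7, shared by several chromatin complexes, was not called at 0.14 ± 0.07. Checkpoint and repair genes had 12 higher and 3 lower of 18 (66.7% and 16.7%, beside the same 34.1% and 33.4%). The Cdk1-inhibiting kinase Pkmyt1 was at 2.11 ± 0.16. Hus1, part of the ring-shaped checkpoint clamp, was at -1.36 ± 0.10, and at -0.35 with library totals alone, called lower under both. Its clamp partner Rad1 was not called in either comparison.

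Mitosis genes had a larger median change than the replication genes. Of 20 genes, 19 rose in CKD against control and 0 fell (95% and 0%, beside 34.1% and 33.4% of all genes). Their median log2 change was 1.98, beside 0.50 for the 44 replication genes. Top2a, which untangles chromosomes, measured 16.57, 20.05, 19.91 and 14.98 CPM in CKD libraries and 3.85, 3.46, 3.01 and 3.48 CPM in control libraries. Mki67, a protein that coats mitotic chromosomes and marks cycling cells, measured 37.5, 41.6, 40.9 and 31.4 CPM in CKD libraries and 10.6, 7.84, 7.33 and 8.99 CPM in control libraries. In colchicine against CKD, 4 mitosis genes were called higher (20%, beside 6.79% of all genes) and 0 lower (beside 8.24%). With RLE factors 2 were called higher (10%, beside 5.62% of all genes). The 4 included the spindle kinase gene Plk1 at 0.59 ± 0.18, Ube2c at 0.77 ± 0.21 and Birc5 at 0.75 ± 0.15 on the log2 scale.

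The summed CPM of the 20 mitosis genes was set against that of the 6 MCM genes in each library, as a ratio that no library scaling changes. It was 1.95, 1.18, 1.36 and 1.58 in colchicine replicates 1 to 4, 1.08 to 1.34 in CKD libraries and 0.458 to 0.611 in control libraries. The CKD and control libraries did not overlap, and 3 of the 4 colchicine libraries lay above the CKD range. Colchicine replicate 1 had the highest ratio, and it also had the highest MCM sum, at 175 CPM beside 127 to 146 CPM in CKD libraries.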

How the data were processed

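The authors deposited 1 table of estimated counts per gene symbol and library. The tools fastp, STAR and Salmon and the build GRCm39 are named in the submitters' processing notes, and no source used here states the strand setting or the annotation. The expected counts were whole numbers as deposited, except that all 28 values of 1000000 or more ended in 0, and they were rounded before use. RNA was total RNA extracted with RNAiso Plus and prepared with the CORALL RNA-seq V2 kit, per the labels.

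Counts of the 12 libraries were fitted with 3 group means in edgeR 4.0.16 (R 4.3.3, TMM scaling, filterByExpr with a minimum count of 10, robust quasi-likelihood F test, two-sided). P-values were adjusted by Benjamini-Hochberg over all 17841 genes and called under 0.05, and the script was tested on simulated data. Standard errors are the log2 fold change divided by the square root of F. The p-values weigh a difference between groups against the spread between these libraries. Alternatives were DESeq2 1.42.0, voom in limma 3.58.1, other scalings and filters, a replicate block, an adenine slope and each library left out. Levels per kilobase used GENCODE exon lengths of GRCm38, and overlaps and shared 31-base stretches came from that annotation. Of each of the 10 role groups, the text names the 2 genes with the smallest p in CKD against control, every gene not called or lower there, and every gene called in colchicine against CKD. Of each other list it names the 2 smallest p in both comparisons, plus Mki67, Top2a and Cdkn1a. One gene that this rule names is not reported here. A few further genes are named after their values were seen. The genes and lists were chosen with earlier results of these data known.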

Additional observations from a re-analysis of the deposited data

Results flagged for a closer look

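Each gene was examined in the 3 groups for a library standing apart, by the gap to its nearest neighbour over the group's range (above Dixon's 95% critical value for 4 libraries). Of 132 groups, 4 passed, and chance gives about 1 in 20. Cdc45 was highest in CKD replicate 3, at 3.453 CPM beside 2.132 to 2.286 CPM in the other CKD libraries. Rfc5 was lowest in CKD replicate 1, at 7.316 CPM beside 8.365 to 8.477 CPM. Pold1 was lowest in colchicine replicate 1, at 10.87 CPM beside 12.21 to 12.41 CPM in the other colchicine libraries. Rpa2 was highest in colchicine replicate 1, at 10.3 CPM beside 9.709 to 9.809 CPM.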

How the results depend on the processing

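In CKD against control, 43 genes were called higher and 0 lower with library totals alone, beside 28 and 3 with TMM, and 0 were lower in colchicine against control beside 3. With library totals, log2 changes turned positive for Tyms (0.88), Tk1 (0.97), Dut (0.95), Gins4 (0.93), Rfc1 (0.93), Rfc2 (0.33), Rfc4 (0.99), Rfc5 (0.94), Rpa1 (0.74), Rpa3 (0.88) and E2f2 (0.71) in CKD against control. They turned positive for Gins4 (0.93), Rfc2 (0.60), Rfc5 (1.01), Rpa1 (0.63), Rpa3 (0.91), E2f2 (0.69) and Slbp (0.92) in colchicine against control. By construction that scaling moves the median of all genes to 1.05 and 1.14. In colchicine against CKD, 4 genes were called higher in the main fit (9.09%, beside 6.79% of all genes). The count was 2 with RLE factors (4.55%, beside 5.62%) and 1 with no low-count filter (2.27%, beside 2.67%). It was 1 with only the 8 libraries compared (2.27%, beside 4.98%) and 0 with the adenine slope (0%, beside 2.2%). With upper-quartile scaling it was 6 (13.6%, beside 9.89%). The cause of these shifts was not tested. Genes called lower were 0 with upper-quartile scaling, library totals, no filter, the 8 libraries or the slope, beside 1. Those settings called 3.45% to 6.64% of all genes lower. Libraries of the same replicate number were not closely alike between groups (correlations of same-numbered deviations between -0.279 and 0.189). Such correlations cannot show whether the animals were paired. With a replicate block, 1 gene was called higher and 0 lower in colchicine against CKD, beside 3.89% and 5.95% of all genes. In CKD against control the block gave 27 and 3, beside 32.9% and 32.3% of all genes. Leaving out each library gave 26 to 29 higher and 2 to 3 lower in CKD against control. In colchicine against CKD it gave 1 to 5 and 0 to 5, and in colchicine against control 26 to 30 and 3 to 4. Of all genes, these fits called 31.8% to 35.3% higher and 31.4% to 34.7% lower in CKD against control. They called 2.31% to 15.9% and 3.16% to 19.4% in colchicine against CKD, and 34.2% to 38.4% and 31.8% to 34.8% in colchicine against control. DESeq2, voom, mitochondrial transcripts left out and a minimum count of 50 kept every count within 1.5 times. Orc1, with 2 to 3 counts in control libraries, is limited by depth.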
